A study of Mus musculus with 20 samples.

Results

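A set of 10 noncoding RNA genes linked to cell growth and DNA damage was followed across the 20 LLC1 tumors of the study, and all 10 had a row among the 35226 genes counted. They were listed by mouse symbol: 6 small nucleolar RNA (snoRNA) host genes, Snhg1, Snhg5, Snhg6, Snhg12, Snhg15 and Gas5, and 4 other long noncoding RNA genes, Neat1, Malat1, Pvt1 and Trp53cor1. LLC1 is a Lewis lung carcinoma line of C57BL/6 origin. The cells were grown under the skin of young adult male C57Bl6/J mice, and the mice were randomised once tumors had reached a set volume. The groups were vehicle, KW6002 (istradefylline, an antagonist of an adenosine receptor), cisplatin (a platinum drug that crosslinks DNA), and cisplatin with KW6002, called cotreatment here, with 5 tumors each. All mice carried the same cell line, and each library held RNA of 1 carcinoma line together with the host cells of its tumor. Levels are given per tumor as CPM, counts scaled to a common library size with TMM factors.

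A snoRNA host gene is transcribed as a longer RNA whose introns hold snoRNAs, the guides that direct modification of ribosomal RNA. Many host RNAs begin with a run of pyrimidines, a feature they share with ribosomal protein mRNAs, and several are degraded during translation by nonsense-mediated decay, so that their level rises when translation or decay slows. Neat1 is the scaffold of paraspeckles, nuclear bodies that form more readily under stress, and Malat1 is an abundant RNA of nuclear speckles, where splicing factors gather. Pvt1 lies beside the Myc oncogene, and Trp53cor1 (lincRNA-p21) is a p53 target that lies beside Cdkn1a.

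The 10 genes were read in all 20 tumors and all passed the filter on low counts. Library totals ran from 28.4 to 41.0 M reads, and the library codes in the labels fall into an earlier and a later run, which hold tumors of every group. Neat1 was the gene with rank 16 of the 16665 tested by mean CPM, Malat1 had rank 30 and Gas5 rank 200, whereas Trp53cor1 had rank 9903 with 222 to 409 counts per tumor. On the scale of CPM per kilobase of annotated exon, vehicle tumors had a mean of 213 for Malat1, 132 for Gas5 and 99.0 for Neat1, between 23.3 and 52.6 for Pvt1 and the 5 Snhg genes, and 2.19 for Trp53cor1. The exons of all annotated transcripts were joined, and they cover the whole of Snhg1, Snhg12, Neat1 and Malat1. These values therefore depend on the annotation. The libraries were made from poly(A) RNA, so RNA without a poly(A) tail is poorly read. Counts are per gene, and the 4 annotated transcripts each of Neat1 and Malat1 are not told apart. Gas5 has 10 annotated snoRNA genes on its strand, Snhg1 has 8, Snhg12 has 5, Snhg5 has 2, and Snhg6 and Snhg15 have 1 each. Of these only Snord87, inside Snhg6, had a row in the table, with 19 to 48 counts, so the values describe the host RNAs and not the mature snoRNAs.

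The annotated positions (GRCm38, GENCODE vM21) were chr19:8723475-8726443 on the plus strand for Snhg1 (ENSMUSG00000108414), chr9:88521050-88522929 on the minus strand for Snhg5 (ENSMUSG00000097195), chr1:9941959-9944118 on the minus strand for Snhg6 (ENSMUSG00000098234), and chr4:132308623-132311024 on the plus strand for Snhg12 (ENSMUSG00000086290). Snhg15 (ENSMUSG00000085156) lies at chr11:6525591-6528760 on the minus strand, and Gas5 (ENSMUSG00000053332) at chr1:161034422-161038539 on the plus strand. Neat1 (ENSMUSG00000092274) and Malat1 (ENSMUSG00000092341) are neighbors on the minus strand, at chr19:5824708-5845478 and chr19:5795690-5802672, with 22035 bases between them. Pvt1 (ENSMUSG00000097039) spans chr15:62037986-62378096 on the plus strand, and Trp53cor1 (ENSMUSG00000085912) chr17:29057430-29079179 on the minus strand. Whether the counting used strand is not given in the sources used here. Zbtb37, with 2344 to 4496 counts, overlaps the first part of Gas5 on the other strand, so reads of that stretch may not be told apart. Every other overlapping gene with a row, Snord87 aside, had at most 20 counts in a tumor.

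RefSeq promoter windows (GRCm38.p6, 250 bases before to 50 after a start) were found for 6 of the 10 genes, Gas5, Malat1, Snhg1, Snhg5, Snhg12 and Snhg15, and not for Snhg6, Neat1, Pvt1 and Trp53cor1. Those of the host genes called higher with cotreatment against vehicle, Snhg15 and Snhg5, are shown with a window of Gas5 and that of Snhg1, which were not called there. Each is 300 bases, 5′ to 3′ on the gene's own strand, at chr11:6528711-6529010 for Snhg15, chr9:88522848-88523147 for Snhg5, chr1:161034916-161035215 for Gas5, and chr19:8723237-8723536 for Snhg1. Capitals mark every match, on either strand, to the letters TGACGTCA (a cyclic AMP response element), CACGTG (an E-box), GGGCGG (a GC box), TATAAA and CCAAT.
Snhg15: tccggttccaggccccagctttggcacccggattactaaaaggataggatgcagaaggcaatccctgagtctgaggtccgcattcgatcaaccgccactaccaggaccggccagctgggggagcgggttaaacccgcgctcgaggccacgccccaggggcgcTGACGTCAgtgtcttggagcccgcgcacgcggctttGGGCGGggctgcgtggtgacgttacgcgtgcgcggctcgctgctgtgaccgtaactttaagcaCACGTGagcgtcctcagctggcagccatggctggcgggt
Snhg5: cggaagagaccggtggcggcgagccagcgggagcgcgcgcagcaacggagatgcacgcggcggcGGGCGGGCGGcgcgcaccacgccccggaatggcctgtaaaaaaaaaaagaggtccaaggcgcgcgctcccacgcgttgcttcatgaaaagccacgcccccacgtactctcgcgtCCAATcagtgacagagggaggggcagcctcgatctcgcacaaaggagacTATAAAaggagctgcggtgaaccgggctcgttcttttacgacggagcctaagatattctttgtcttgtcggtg
Gas5: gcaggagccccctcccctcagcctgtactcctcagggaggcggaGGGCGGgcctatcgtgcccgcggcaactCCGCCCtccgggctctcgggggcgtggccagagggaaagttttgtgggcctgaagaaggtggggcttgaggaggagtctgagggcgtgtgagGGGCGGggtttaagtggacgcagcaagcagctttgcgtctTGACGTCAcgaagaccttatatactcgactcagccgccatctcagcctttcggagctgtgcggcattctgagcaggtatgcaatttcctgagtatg
Snhg1: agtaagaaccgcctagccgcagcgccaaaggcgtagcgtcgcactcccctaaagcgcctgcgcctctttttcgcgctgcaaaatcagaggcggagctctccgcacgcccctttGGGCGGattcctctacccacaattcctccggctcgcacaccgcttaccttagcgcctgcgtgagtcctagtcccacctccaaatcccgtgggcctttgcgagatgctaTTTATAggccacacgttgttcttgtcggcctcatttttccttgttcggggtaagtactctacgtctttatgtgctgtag

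Counting the first transcribed base as 1, TGACGTCA stood at -88 to -81 in Snhg15 and at -46 to -39 in the Gas5 window, and was held by 1.79% of the 32851 promoter windows of this length. CACGTG stood in Snhg15 at 12 to 17 and is in 7.15% of all windows. TATAAA was found in Snhg5 and, on the other strand, in Snhg1 (13.6% of all windows), CCAAT in Snhg5 (37.4%), and GGGCGG in all 4 (35.7%). None of the matched motifs overlapped another, although a pair of GGGCGG matches in Snhg5 share bases. The p53 response element, searched as a pair of half-sites, was in none of the windows of these genes and in 0.0731% of all windows. A run of at least 6 pyrimidines lay within the 20 bases around the start in Snhg1, in Snhg12 and in the printed Gas5 window, and in 20.2% of all windows. In Snhg5 the run ttctttt began within these 20 bases and ended past them, so it was not counted. The other Gas5 window, not printed, had neither such a run nor TGACGTCA. In the Snhg12 window these 20 bases read ttctcagtcctttctcgctt. A match is a description of letters and is not evidence that a factor was bound.

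KW6002 alone was compared with vehicle to ask how the antagonist by itself related to the tumor transcriptome. None of the 10 genes was called, where a call needed an adjusted p under 0.05 (edgeR's quasi-likelihood test, Benjamini-Hochberg over all 16665 genes) and a log2 fold change of at least 0.32 in size. No gene at all was called in this comparison (0%), and none of the 10 had an unadjusted p under 0.05, although 339 of all genes did. DESeq2 called 0 of the 10 as well. The estimates were small: 9 of 10 lay above 0, with a median log2 fold change of 0.04 beside -0.0034 for all genes tested. The 95% intervals ran from -0.08 to 0.20 for Gas5 and from -0.12 to 0.13 for Snhg1, and from -0.40 to 0.59 for Malat1, so that for that gene the data left room for a change of 0.59 on the log2 scale.

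**Figure D1:**
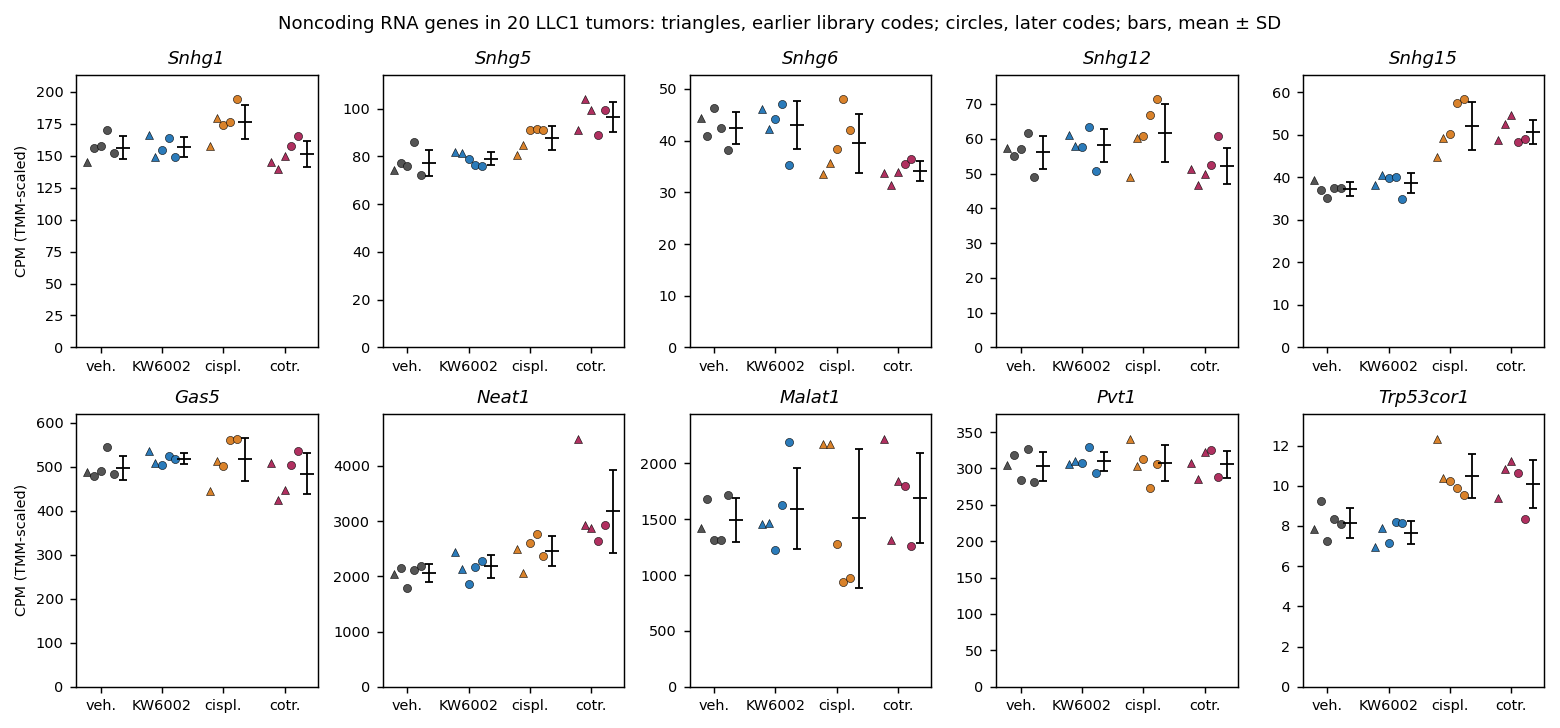
Level of each gene (vertical axes, TMM-scaled CPM from 0) in the 5 tumors of each group (horizontal axes), with the mean ± SD beside the points; triangles are earlier and circles later library codes. Snhg15 in every tumor given cisplatin lay above every other tumor, Neat1 was highest in cotreatment, and Malat1 in the cisplatin group split into 2 high and 3 low tumors.

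Cisplatin was compared with vehicle to ask which of these RNAs moved with the drug. Snhg15 and Trp53cor1 rose, and the other 8 genes were not called. This count of 2 of 10 stood beside 10.6% of all genes called in either direction and 6.01% called higher. The median log2 fold change of the 10 genes was 0.16, against 0.00041 over all genes.

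Snhg15, whose host RNA carries Snora9, had 39.4, 36.9, 35.0, 37.5 and 37.5 CPM in the vehicle tumors and 38.2, 40.4, 39.8, 40.0 and 34.8 in the KW6002 tumors. The cisplatin tumors had 44.9, 49.2, 50.2, 57.3 and 58.3 CPM, and the cotreatment tumors 48.8, 52.6, 54.6, 48.3 and 49.1. All 10 tumors given cisplatin were thus above all 10 tumors that were not, and the cisplatin and cotreatment groups overlapped. A cisplatin group wholly above vehicle was seen in 5.23% of all genes. The increase over vehicle was 0.48 ± 0.067 on the log2 scale with cisplatin (SE, n = 5 per group, adjusted p = 7.54e-05, edgeR) and 0.44 ± 0.067 with cotreatment (adjusted p = 4.13e-05, edgeR). Among the later library codes alone these were 0.61 and 0.43.

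Trp53cor1, the noncoding neighbor of Cdkn1a, was the lowest of the 10, with 7.84, 9.25, 7.25, 8.37 and 8.09 CPM in vehicle tumors and 6.93, 7.90, 7.15, 8.20 and 8.17 in KW6002 tumors. It was read at 12.3, 10.4, 10.2, 9.91 and 9.53 CPM in cisplatin tumors and at 9.37, 10.9, 11.2, 10.7 and 8.33 in cotreatment tumors. The cisplatin group lay wholly above vehicle, whereas cotreatment replicate 5 fell inside the vehicle range. The log2 fold change with cisplatin was 0.36 ± 0.097 (adjusted p = 0.0144, edgeR) and with cotreatment 0.31 ± 0.097 (adjusted p = 0.0177), the latter under the fold limit. Cisplatin replicate 1 carried the call: without it the value was 0.31 (adjusted p = 0.0302), under the limit. Within the later library codes the value was 0.28 (adjusted p = 0.0968).

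Cdkn1a, a p53 target that arrests the cell cycle and lies 11.8 kb from the 5′ end of Trp53cor1 on the other strand, rose with both treatments, by 0.72 ± 0.114 with cisplatin (adjusted p = 0.00026) and 0.77 ± 0.114 with cotreatment (adjusted p = 3.63e-05). Srsf3, a splicing factor gene on the other side of Trp53cor1, gave -0.12 ± 0.073 and -0.10 ± 0.073 and was not called. Of 14 genes of the p53 pathway, 11 rose with cisplatin (6.01% of all genes did) and 11 with cotreatment (13.1% of all genes), none fell, and the list medians were 0.67 and 0.69. Sesn2, a stress-induced regulator of growth signaling, had 36.6 ± 3.5 CPM in vehicle tumors (SD, n = 5), 65.7 ± 7.6 in cisplatin and 67.9 ± 6.2 in cotreatment tumors. Mdm2, which degrades p53 and is its target, had 161 ± 13, 260 ± 40 and 261 ± 22 CPM in the same groups.

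Snhg1 and Snhg5 had adjusted p under 0.05 with cisplatin but small fold changes. Snhg1, a host of box C/D snoRNAs, gave 145, 156, 158, 170 and 152 CPM in vehicle and 157, 180, 174, 177 and 194 in cisplatin tumors, which overlapped. Its log2 fold change was 0.18 ± 0.060 (adjusted p = 0.0489). KW6002 tumors had 149 to 166 CPM and cotreatment tumors 145, 139, 150, 157 and 165. The cotreatment value against cisplatin was -0.22 ± 0.060 (adjusted p = 0.0316, edgeR), which also stayed under the fold limit. Its neighbors were not called in these comparisons: Slc3a2, the heavy chain of an amino acid transporter, gave 0.13 ± 0.114 with cisplatin, and Wdr74, a ribosome assembly factor, gave 0.09 ± 0.055.

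Cotreatment was compared with vehicle to ask what moved when both drugs were given. Snhg5, Snhg15 and Neat1 rose and no gene of the 10 was called lower, beside 23.5% of all genes called in either direction, 13.1% higher and 10.4% lower. The 10 genes had a median log2 fold change of 0.10, the 6 hosts -0.04 and the other 4 genes 0.24, against -0.02 for all genes. In 3 genes every cotreatment tumor was above every vehicle tumor, as in 12.2% of all genes, and in 1, Snhg6, every one was below, as in 12.4%.

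**Figure D2:**
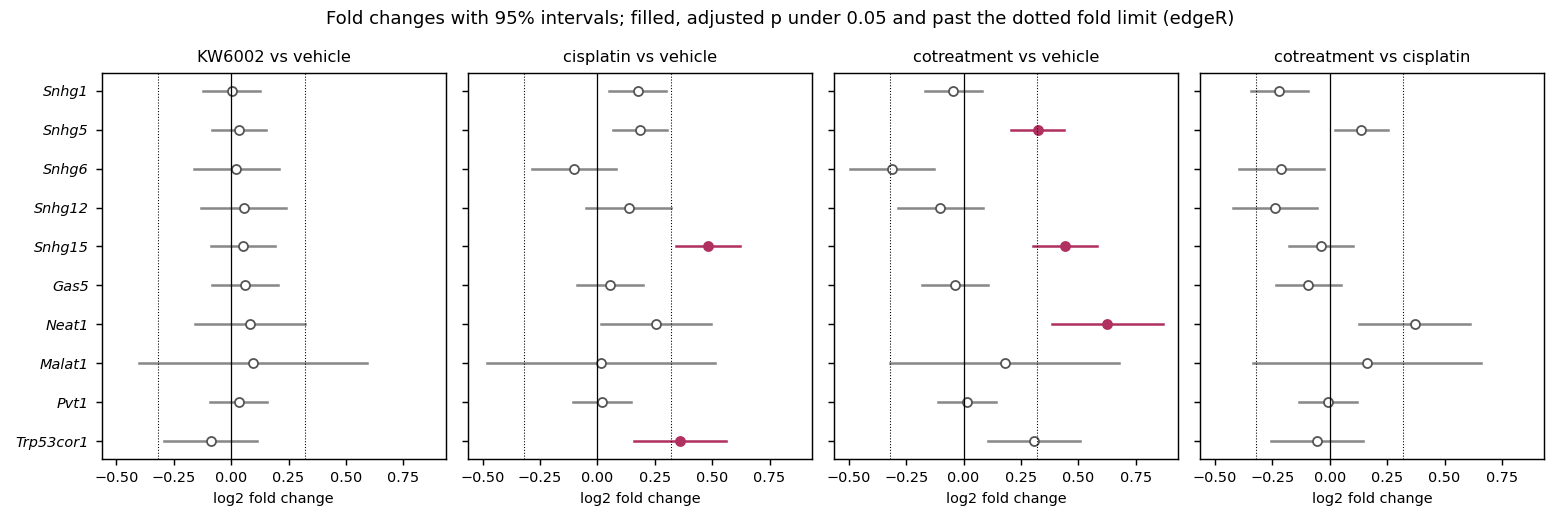
Log2 fold change (horizontal axis) of each gene (vertical axis) in 4 comparisons, with 95% intervals from edgeR; filled points were called and dotted lines mark the fold limit of 0.32. Snhg15 was called in both comparisons of a cisplatin group with vehicle, Neat1 and Snhg5 with cotreatment and Trp53cor1 with cisplatin.

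Neat1, read with its transcripts counted together, had 2036, 2158, 1791, 2114 and 2184 CPM in vehicle tumors and 2432, 2138, 1867, 2175 and 2276 in KW6002 tumors. In cisplatin tumors it had 2499, 2052, 2607, 2756 and 2364 CPM, and in cotreatment tumors 4491, 2929, 2876, 2636 and 2931. Every cotreatment tumor was above every vehicle and KW6002 tumor, while the cisplatin group overlapped vehicle, cotreatment and KW6002. The log2 fold change with cotreatment was 0.63 ± 0.116 against vehicle (adjusted p = 0.00031, edgeR), and 0.54 ± 0.116 against KW6002 (adjusted p = 0.0011).

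Cotreatment replicate 1 stood far above the other 4 cotreatment tumors for Neat1. Without it the value against vehicle was 0.47 (adjusted p = 0.00033), and within the later library codes, which leave it out, 0.45 (adjusted p = 0.0089). Among the 10 tumors given cisplatin, that tumor had the highest sum of fat markers (21.9 CPM, with the next at 18.4) and the lowest sums of carcinoma (467, with the next at 479), macrophage (1136, with the next at 1137) and epidermis markers (0.954, with the next at 1.09). Its other marker sums lay within the range of the other 9, and the part of those cells in the Neat1 level was not tested. With cisplatin alone the Neat1 value was 0.26 ± 0.116 (adjusted p = 0.137), and 0.34 (adjusted p = 0.0176) among later library codes only.

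The direct comparison of cotreatment with cisplatin asked what KW6002 added. It called 0 of the 10 genes, beside 4% of all genes, and 5 of the 10 had an unadjusted p under 0.05, as had 3883 of all 16665. DESeq2 called 1, Neat1. The Neat1 value was 0.37 ± 0.116 (adjusted p = 0.0589, edgeR), and 0.21 (adjusted p = 0.171) without cotreatment replicate 1. Among later library codes alone it was 0.11 and among earlier codes alone 0.59, neither called. The interaction, which asks whether KW6002 moved a gene differently with cisplatin than without, called 0 of 10 genes by edgeR and 0 by DESeq2, beside 0.066% of all genes, and 2 of the 10, Snhg1 and Snhg12, had an unadjusted p under 0.05, as had 2034 of all 16665. Their estimates were -0.22 ± 0.085 (adjusted p = 0.276) and -0.29 ± 0.125 (adjusted p = 0.343).

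Of 13 paraspeckle protein genes tested, 2 fell with cotreatment and none rose, beside 10.4% of all genes called lower and 13.1% higher, and with cisplatin none was called, 4 having an unadjusted p under 0.05 (5143 of all 16665 genes had). Taf15 fell by 0.40 ± 0.067 and Nono, a core paraspeckle protein, by 0.35 ± 0.060. Frmd8os, the noncoding gene that begins 0.144 kb beyond Neat1 on the other strand, rose with cotreatment by 0.88 ± 0.301 on the log2 scale (adjusted p = 0.0271), at a level of 0.402 ± 0.11 CPM against 0.215 ± 0.092 in vehicle tumors.

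Snhg5, which carries Snord50a and Snord50b, had 74.5, 77.3, 75.8, 86.2 and 72.0 CPM in vehicle tumors and 81.9, 81.4, 79.0, 76.5 and 76.0 in KW6002 tumors. Cisplatin tumors had 80.4, 84.9, 91.0, 91.3 and 91.1 CPM, and cotreatment tumors 90.8, 104, 99.2, 89.1 and 99.5. Cotreatment lay wholly above vehicle and KW6002 and overlapped cisplatin. The values against vehicle were 0.19 ± 0.056 with cisplatin (adjusted p = 0.0273, under the fold limit) and 0.32 ± 0.056 with cotreatment (adjusted p = 0.00016, edgeR), the latter only just past that limit. Leaving out vehicle replicate 5 or cotreatment replicate 2 gave 0.31, and the later library codes alone gave 0.30 (adjusted p = 0.0166), so the call rests on the fold limit, while the adjusted p was at most 0.0166 under the alternatives run.

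Snhg6, the host of Snord87, moved the other way. It had 44.3, 40.8, 46.2, 42.4 and 38.2 CPM in vehicle tumors and 46.2, 42.3, 44.2, 47.1 and 35.4 in KW6002 tumors, against 33.5, 35.7, 38.3, 48.0 and 42.1 with cisplatin and 33.7, 31.3, 33.9, 35.4 and 36.4 with cotreatment. All cotreatment tumors were below all vehicle tumors, while the cisplatin group overlapped both. The log2 value was -0.31 ± 0.089 against vehicle (adjusted p = 0.0091, just under the fold limit in size) and -0.33 ± 0.089 against KW6002 (adjusted p = 0.0058, called lower). Among the later library codes it was -0.20 against vehicle (adjusted p = 0.283).

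Cotreatment was also set against KW6002, which asks what cisplatin added to the antagonist. It called 4 of the 10 genes, Snhg15, Neat1 and Trp53cor1 higher and Snhg6 lower, beside 23.3% of all genes, 12.6% higher and 10.7% lower. In 4, Snhg5, Snhg15, Neat1 and Trp53cor1, every cotreatment tumor was above every KW6002 tumor, as in 12.2% of all genes. Snhg15 gave 0.39 ± 0.067 (adjusted p = 0.00014) and Trp53cor1 0.39 ± 0.097 (adjusted p = 0.0033). The Snhg6 call was lost without any one of KW6002 replicates 1, 3 and 4 or cotreatment replicate 2. Within the later codes only Snhg15 and Neat1 were called, beside 1654 of all genes. Within the earlier codes Snhg15 (0.40, adjusted p = 0.0065, edgeR), Snhg6 (-0.43, adjusted p = 0.0045) and Trp53cor1 (0.50, adjusted p = 0.0336) were called. Neat1 was not called there (0.58, adjusted p = 0.110). This comparison shares the cotreatment tumors with that against vehicle, so the pair are not independent.

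Gas5, Snhg12 and Pvt1 gave no call in any comparison. Gas5, a growth arrest RNA that carries the most snoRNA genes of the 6 hosts, had 487, 479, 491, 545 and 483 CPM in vehicle tumors, 504 to 535 in KW6002, 444 to 563 in cisplatin and 424 to 536 in cotreatment tumors. Its group means spanned only a 1.07-fold range, and the 95% interval with cotreatment was -0.18 to 0.10 on the log2 scale. Snhg12, which carries Snora16a, Snora44, Snora61 and Snord99, had 49.0 to 61.7, 50.8 to 63.2, 49.1 to 71.3 and 46.8 to 60.8 CPM in vehicle, KW6002, cisplatin and cotreatment tumors. Against vehicle it gave 0.14 ± 0.089 with cisplatin and -0.10 ± 0.089 with cotreatment. Zbtb37, which overlaps Gas5, was not called in any comparison.

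Pvt1 was the steadiest of the 10 between groups, with means of 303 ± 20, 310 ± 13, 307 ± 24 and 306 ± 19 CPM in vehicle, KW6002, cisplatin and cotreatment tumors (SD, n = 5 each), a 1.02-fold range. The intervals against vehicle were -0.10 to 0.15 with cisplatin and -0.11 to 0.14 with cotreatment. Myc, 47.6 kb away on the same strand, fell with cotreatment by 0.49 ± 0.144 (adjusted p = 0.0117), from 350 ± 53 to 249 ± 37 CPM, and gave -0.19 ± 0.144 with cisplatin (adjusted p = 0.387). Gm41333, on the other side, rose with cotreatment by 1.12 ± 0.288 from a level of 0.473 ± 0.23 CPM. In a list of Myc and its targets in growth, 4 of 9 tested genes fell with cotreatment, Myc itself among them, beside 10.4% of all genes. None was called with cisplatin, where 1 had an unadjusted p under 0.05, against 5143 of all 16665 genes. Odc1, which makes polyamines, fell by 0.61 ± 0.096 and Ncl, a nucleolar protein, by 0.35 ± 0.061.

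Malat1 differed more between tumors of a group than between groups. It had 1424, 1680, 1315, 1315 and 1719 CPM in vehicle tumors, 1454, 1467, 1225, 1627 and 2192 in KW6002, 2175, 2169, 1279, 942 and 972 in cisplatin, and 2221, 1309, 1844, 1797 and 1261 in cotreatment tumors. Group means differed by at most 1.13-fold, and the coefficient of variation reached 41.2% in the cisplatin group, against 13.2% in vehicle. The log2 fold change with cisplatin was 0.02 ± 0.236 and with cotreatment 0.18 ± 0.236, with a 95% interval of -0.32 to 0.68 for the latter.

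The high and low Malat1 tumors of the cisplatin group were also those with earlier and later library codes in the labels. The 2 cisplatin tumors with earlier codes had a mean of 2172 CPM and the 3 with later codes 1064. The fitted difference of later from earlier codes in this group was -1.03 on the log2 scale (adjusted p = 0.0263, edgeR). That contrast was chosen after these values were seen, so its p restates the split and is not independent evidence of it. Of all genes, 9.66% were called in the same contrast in the cisplatin group, against 0% in the vehicle and KW6002 groups and 0.012% in cotreatment. Snhg6, Snhg12 and Snhg15 were higher in the later cisplatin tumors, by 0.31, 0.28 and 0.23, and were not called (adjusted p of 0.0717 or more, edgeR). Pvt1 and Trp53cor1 gave -0.11 and -0.20 there. With later codes alone, the Malat1 value of cisplatin against vehicle was -0.48 (adjusted p = 0.12). With separate code terms for tumors with and without cisplatin it was 0.44 (adjusted p = 0.376), so its direction depended on how the codes were handled. Sums of macrophage markers were 1145 and 1293 CPM in the earlier and 1599 to 1994 in the later cisplatin tumors, those of neutrophils 13.3 and 12.9 against 22.7 to 63.9, and those of T and NK cells 3.35 and 3.22 against 5.17 to 9.27. Carcinoma markers were at 498 and 479 against 520 to 594 CPM, and B cell markers at 0.507 and 0.863 against 0.998 or more. Sums of endothelium, fibroblast, skeletal muscle, fat, epidermis and red blood cell markers overlapped between the earlier and later cisplatin tumors. The part of any of these cells in the Malat1 level was not tested.

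**Figure D3:**
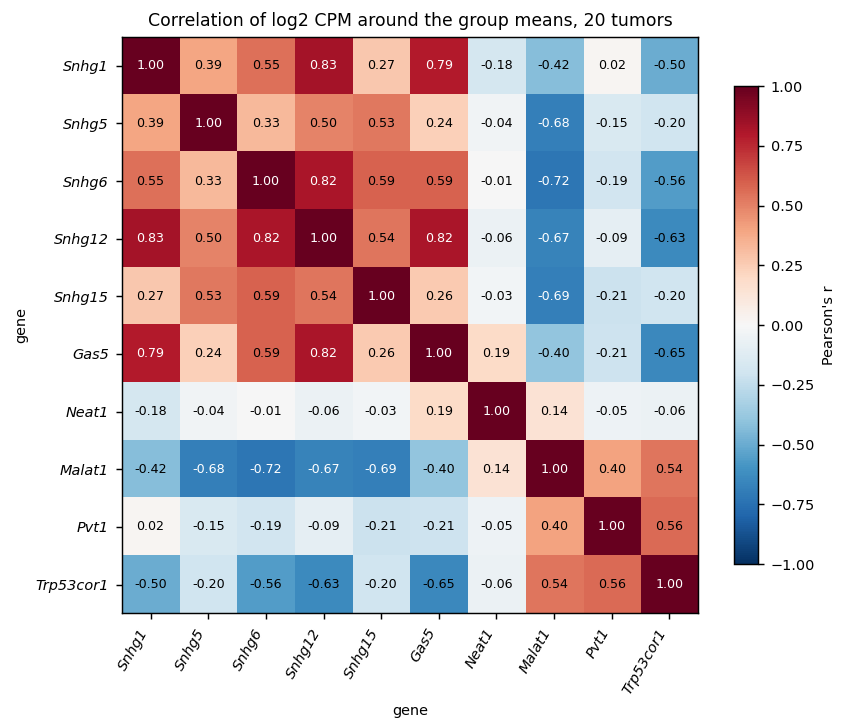
Pearson's r between the log2 CPM of each pair of genes (both axes) after subtracting group means, over 20 tumors. Snhg1, Snhg12, Snhg6 and Gas5 form a block of positive values up to 0.83, and Malat1 and Trp53cor1 have negative values with all 6 hosts.

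Around their group means, Snhg1, Snhg6, Snhg12 and Gas5 varied together, with r between 0.55 and 0.83 for each pair over the 20 tumors. The value was 0.83 for Snhg1 and Snhg12, and 0.82 both for Snhg6 with Snhg12 and for Gas5 with Snhg12. Malat1 had negative values with all 6 hosts, from -0.72 for Snhg6 to -0.42 for Snhg1 and -0.40 for Gas5, and so did Trp53cor1, from -0.65 for Gas5 to -0.20 for Snhg5 and Snhg15. Neat1 with Malat1 gave only 0.14. These are descriptions, since the values share libraries, scaling and the split by library code. The 5 genes whose pattern was most like that of Gas5, among 12743 genes and by the same measure, were Gtf2e2, Vegfc, Rps24, Srsf7 and Egr2 (r of 0.83 to 0.85). Those most like Neat1 were Adamts4, Sec61a2, Cysltr1, Hivep2 and 4632404H12Rik (r of 0.64 to 0.71).

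Other genes of snoRNA biology were described from lists beside these results. Of 12 further noncoding host genes tested, 2 rose with cotreatment and none fell, with a list median of 0.15, and none was called with cisplatin, where 9 had an unadjusted p under 0.05, as had 5143 of all 16665 genes, and the median was 0.24. Snhg20 had 14.3 ± 0.85 CPM in vehicle and 18.8 ± 0.92 in cotreatment tumors, a log2 fold change of 0.40 ± 0.090 (adjusted p = 0.0015). Of 20 protein-coding hosts, 6 fell, 1 rose and 13 were not called with cotreatment, with a median of -0.24. Of all genes, 13.1% were called higher and 10.4% lower in that comparison, and the difference between the kinds of host was not tested. Rpl13a, a ribosomal protein gene that hosts snoRNAs, fell by 0.86 ± 0.091 and Tpt1 rose by 0.37 ± 0.083, both uncertain because their near-identical pseudogenes can share reads.

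Dkc1, the pseudouridine synthase of box H/ACA particles and itself a host, fell by 0.40 ± 0.058 with cotreatment (adjusted p = 2.59e-05) and was the only one of 8 snoRNA particle proteins called in that comparison, where 7 had an unadjusted p under 0.05, as had 7450 of all 16665 genes. Against KW6002, cotreatment had 5 of the 8 lower, beside 10.7% of all genes. Against vehicle all 8 of those genes had negative estimates, with a median of -0.28. Of 52 cytosolic ribosomal protein genes, whose mRNAs begin with pyrimidines as many host RNAs do, 6 fell and none rose, with a median of -0.17, beside 10.4% of all genes called lower. Rpl13a is among the 6, and the list is likewise uncertain where near-identical pseudogenes share reads. None of 10 nonsense-mediated decay factors was called with either treatment by edgeR, 2 having an unadjusted p under 0.05 with cisplatin and 3 with cotreatment (5143 and 7450 of all 16665 genes had), and their medians were -0.0053 with cisplatin and -0.07 with cotreatment.

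**Figure D4:**
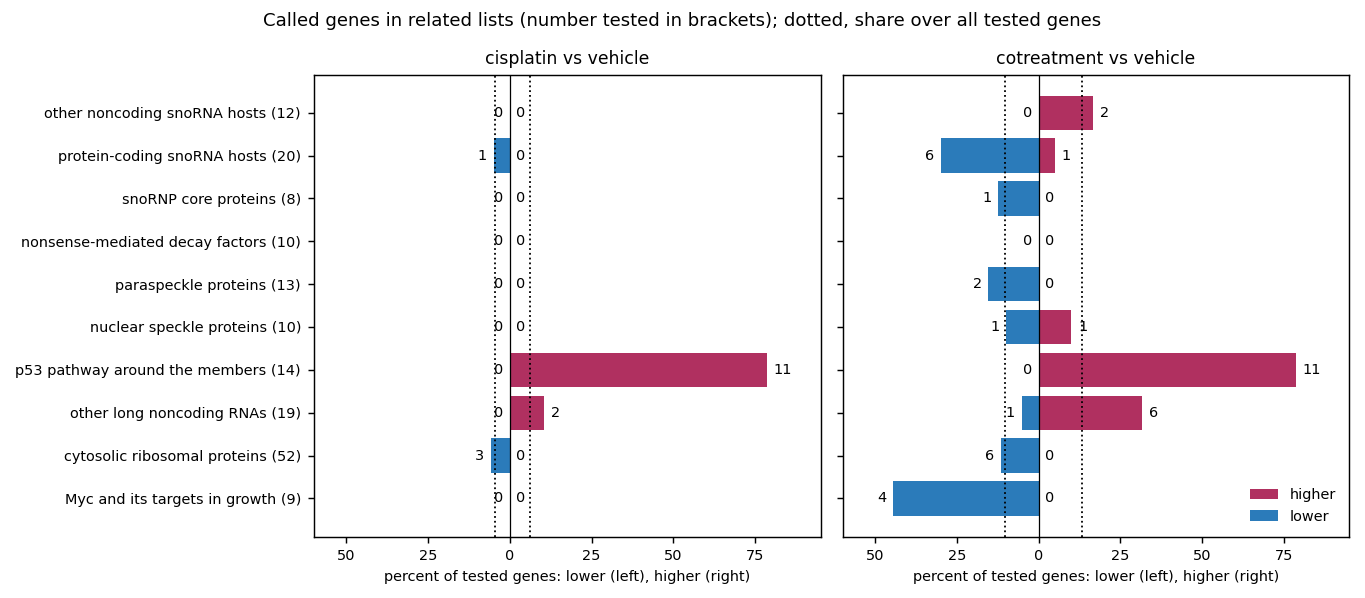
Percent of tested genes called higher (right) and lower (left) in each related list, for cisplatin and cotreatment against vehicle, with the number of genes at each bar and dotted lines at the shares over all genes. The p53 list had 11 of 14 genes higher in both comparisons. With cotreatment, 6 of 20 protein-coding hosts were lower, as were 4 of 9 in the list of Myc and its targets, Myc itself among them.

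Among nuclear speckle proteins, the neighbors of Malat1 in the nucleus, 1 of 10 rose and 1 fell with cotreatment, near the 13.1% and 10.4% of all genes. Srsf5 rose by 0.36 ± 0.065 and Srsf7 fell by 0.38 ± 0.060. Among 19 other long noncoding RNAs, 6 rose and 1 fell with cotreatment, and 2 rose with cisplatin, where 6.01% of all genes were called higher. Mir22hg had 40.7 ± 4.0 CPM in vehicle, 60.7 ± 7.6 in cisplatin and 69.3 ± 9.2 in cotreatment tumors. Firre, an X-linked RNA that organises chromatin, had 73.2 ± 5.3, 87.6 ± 9.5 and 109 ± 8.7 CPM, and imprinted Rian fell with cotreatment by 1.17 ± 0.370.

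Sums of markers of the cell types in the tumors differed between groups for some types and overlapped for others. The sum of 4 endothelial markers was 118 to 175 CPM in vehicle tumors, 55.6 to 76.8 with cisplatin and 58.7 to 91.8 with cotreatment, and that of 5 red blood cell markers 25.9 to 117, 0 to 0.0613 and 0.0341 to 0.11. The carcinoma markers were nearly all keratin (Krt8 and Krt18), with Epcam at a median of 0 and Cdh1 at 1.83 CPM, and summed to 390 to 424, 479 to 594 and 467 to 547 CPM, macrophage markers to 1032 to 1468, 1145 to 1994 and 1136 to 1476, and fibroblast markers to 2406 to 2912, 2036 to 2858 and 2338 to 2790. Neutrophil markers summed to 41.5 to 114, 12.9 to 63.9 and 12.7 to 29.9 CPM in vehicle, cisplatin and cotreatment tumors. T and NK cell markers stayed at 17.5 CPM or less in every tumor and epidermis at 1.75 or less, B cell markers at 1.49 or less outside 1 KW6002 tumor with 44.1, fat reached 98.1, and skeletal muscle ran from 1.24 to 932 CPM. In bulk tumors, fewer cells of a type and less RNA per cell cannot be told apart, and the part of these shifts in the levels of Snhg15, Snhg5, Neat1 and Trp53cor1 was not tested.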

How the data were processed

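RNA of 20 LLC1 tumors was sequenced from stranded poly(A) libraries. The authors deposited raw gene counts in 1 table, with 20 sample columns, all used. Per the labels, reads were demultiplexed with bcl2fastq 2.17.1.14, aligned with STAR to mm10, and counted with HTSeq 0.6.1p1; unique mapping can lower genes with near-identical copies. Of 35226 gene rows, 35142 were matched to symbols and positions in GENCODE vM21. Groups came from the sample titles. The labels do not name the mouse of each tumor, so p-values measure only the spread between these samples.

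Counts were fitted with edgeR 4.0.16 (R 4.3.3): filterByExpr, TMM scaling, a quasi-likelihood fit of 4 group means over all 20 tumors, and Benjamini-Hochberg adjustment over 16665 genes. A call needed an adjusted p under 0.05 and a log2 fold change of at least 0.32 in size. SE was the fold change divided by the root of F, and log2 CPM used a prior count of 2. The test was checked on simulated counts with 200 changed genes, 50 at each size, for cotreatment against vehicle. It recovered 28% of 1.25-fold, 68% of 1.5-fold, 94% of 2-fold and 100% of 4-fold changes, with 9 false calls. Small changes can thus go uncalled, but these rates are not those of the members. The data had 3914 called genes in that comparison, and a 1.25-fold change lies at the fold limit itself. Totals of 28.4 to 41.0 M reads gave 222 or more counts for each member gene in each tumor. No pair of replicates was a repeated library (lowest chi-square per gene 8.44 over 40 pairs). Promoter windows came from a RefSeq table.

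The 10 genes, the related lists and the markers were chosen with earlier results of these data known. Of the related lists, up to 2 genes called higher and 2 lower with cotreatment against vehicle, by smallest adjusted p with a mean of at least 50 counts, are named, with the nearest tested neighbors of 5 members and the 5 genes most like Gas5 and Neat1. A gene that this rule names is not reported here. Alternatives were DESeq2 1.42.0, limma 3.58.1 (voom with sample weights), other scalings and filters, a replicate block, library code terms and subsets, only the groups compared, no fold limit, and leaving out each tumor.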

Additional observations from a re-analysis of the deposited data

Results flagged for a closer look

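Among 40 gene and group combinations of 5 tumors, 2 had a tumor far from the other 4 by Dixon's ratio (critical value 0.71), about the number that chance gives at 1 in 20. Neat1 in cotreatment replicate 1 was at 4491 CPM, with the next tumor at 2931 (ratio 0.841). Gas5 in vehicle replicate 4 was at 545 CPM, with the next tumor at 491 (ratio 0.825). No gene of the 10 passed the test of the interaction.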

How the results depend on the processing

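The replicate numbers do not pair the tumors: over 30 same-numbered pairs the correlation of deviations from the group means ran from -0.523 to 0.508, and 4 of 30 matched their own number best. With a replicate block, the calls of the 10 genes were 0, 2, 3, 0, 4 and 0 for KW6002, cisplatin and cotreatment against vehicle, cotreatment against cisplatin, cotreatment against KW6002 and the interaction, and all genes called in the interaction went from 11 to 0. Across the alternatives that keep the fold limit, no called value of a member changed sign, while 14 member values lost a call and 14 gained one. Without a fold limit, cisplatin against vehicle called 4, cotreatment against vehicle 5 and cotreatment against cisplatin 1 (Snhg1). Over all genes, no alternative called more than 2752, 5906 and 1086 in these comparisons. Cotreatment against cisplatin called 1 (Neat1) with DESeq2 and with at least 10 counts in every tumor. Cotreatment against KW6002 called 2 with later library codes only, beside 1654 of all genes. Leaving out each tumor gave 0 calls for KW6002 against vehicle and the interaction, 1 to 2 for cisplatin against vehicle (1 without cisplatin replicate 1), 2 to 5 for cotreatment against vehicle (5, with Snhg6 and Trp53cor1 added, without cotreatment replicate 5), 0 to 1 for cotreatment against cisplatin (1, Neat1, without cotreatment replicate 4) and 3 to 5 for cotreatment against KW6002. With separate terms for the library codes of tumors with and without cisplatin, added after seeing the data, the counts were 0, 2, 4, 0, 4 and 0 in the same order, with Snhg6 and Trp53cor1 called and Snhg5 not called for cotreatment against vehicle. All genes called in cotreatment against cisplatin ranged from 1 with later codes to 1086 without a fold limit, and in the interaction from 0 to 291. Under the same alternatives they ranged from 1104 to 2752 for cisplatin against vehicle and 2209 to 5906 for cotreatment against vehicle. For cotreatment against KW6002 the range was 1654 to 5837, and for KW6002 against vehicle 0. With each tumor left out, all genes called were 0, 1379 to 2067, 3327 to 4063, 289 to 1013, 3289 to 4058 and 0 to 229, in the order given above. The number of tumors with earlier vehicle codes, 1, limits what the code terms can separate.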
